A study of Mus musculus with 8 samples.

Results

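Genes for mitochondrial ribosomal proteins were followed through the islet cell classes of an experiment on cytokine and nitric oxide signaling. They were taken as all mouse symbols that start with Mrpl or Mrps and a number, with pseudogenes left out, which gave 78 of the 30406 genes listed for both replicates. By subunit, 51 of the proteins belong to the large and 26 to the small subunit, and Mrps36 was placed in neither because its product is a component of the oxoglutarate dehydrogenase complex. The letter in a symbol does not always give the subunit: Mrps18a and Mrps30 encode large-subunit proteins. By their systematic names, 45 of the 77 placed proteins are counterparts of bacterial ones (prefix u or b), and 32 are named as mitochondrial (prefix m). The set was compared with 86 genes for cytosolic ribosomal proteins.

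The mitochondrial ribosome translates the few mRNAs that mitochondrial DNA still encodes, all of them for subunits of the respiratory chain and ATP synthase. Its RNAs come from mitochondrial DNA, whereas every one of its proteins is encoded in the nucleus, made on cytosolic ribosomes and imported. In β-cells, oxidation of glucose in mitochondria supplies the ATP signal for insulin secretion, and nitric oxide, which β-cells make through inducible nitric oxide synthase (iNOS) after cytokine exposure, is known to inhibit mitochondrial respiration.

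Islets of male C57BL/6 mice (C57BL6/J in the study's methods) aged 12 to 16 weeks were pooled from 10 mice per replicate and divided over 4 conditions, with 2 replicates and so 8 single-cell libraries in all. Intact islets were cultured for 18 h without addition, with 10 U/mL human IL-1β plus 150 U/mL mouse IFN-γ (called cytokines here), with the same cytokines plus 2 mM of the nitric oxide synthase inhibitor NMMA, or with NMMA alone, and were then dispersed. The labels name no transgene or deleted allele. With 2 libraries per condition, the p-values within a class rest on the spread between 2 replicates, estimated over all 4 conditions. That spread holds differences between the pools of islets and in how the replicates were counted.

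The libraries held 1345 to 3486 cell barcodes and 26549922 to 50731370 unique molecular identifiers (UMIs, 1 per captured mRNA molecule), and 937 to 2149 barcodes per library passed the study's limits on genes and mitochondrial UMIs. Cells were grouped by marker genes into 6357 β-, 628 α- and 341 δ-cells, 324 macrophages and 284 endothelial cells. The class's own markers were highest in it for 8 of 9 β-, 5 of 6 α-, 4 of 5 δ-, 10 of 10 macrophage and 8 of 8 endothelial markers, and 1 δ-cell marker was not detected. Clusters had been named by the same markers, so these counts do not test the names independently. The α-, δ- and PP-cell (pancreatic polypeptide) clusters were clustered a second time, and 272 cells of clusters led by insulin genes were then left out, 70 and 60 from the untreated, 14 and 126 from the NMMA, 0 and 2 from the cytokine plus NMMA and none from the cytokine libraries. Only 11 δ-cells remained in each cytokine library. UMIs were summed per library and class, and the members together took 39001 to 113504 UMIs in the β-cell sums, 2475 to 9528 in α-cells, 754 to 5346 in δ-cells, 1774 to 4377 in macrophages and 923 to 4090 in endothelial cells. Levels are given as CPM, UMI counts relative to the total of the library, scaled by the TMM method of edgeR, which sets the bulk of genes to no change between libraries. In sums of this kind, fewer molecules per cell and fewer expressing cells cannot be told apart.

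Within each class, most untreated and most cytokine-treated cells lay in different clusters, so that each comparison within a class is also one between clusters. In β-cells of replicate 1, a cluster led by Ppp1r1a held 1495 of 1662 untreated and 5 of 1139 cytokine-treated cells, and a cluster led by Il4i1 held 1 and 1029. In β-cells of replicate 2, a cluster led by Cfb held 2 of 610 untreated and 399 of 577 cytokine-treated cells. A cluster led by Hspb1 held 45 of 45 and 54 of 69 cytokine-treated α-cells and 4 of 92 and 1 of 94 untreated ones. The mean z-score of the α-cell markers over clusters was 0.16 in it, against 0.86, 1.33 and 1.83 in the other α-cell clusters. In δ-cells a cluster led by Plet1 held 10 and 9 of the 11 cells in each cytokine library and 1 and 0 untreated cells. A cluster led by C1qb held 23 of 33 and 23 of 36 cytokine-treated macrophages and 0 and 2 untreated ones, and a cluster led by Timp3 held 14 of 15 and 23 of 23 cytokine-treated endothelial cells and no untreated one.

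In β-cells, cytokines raised mRNA for 36 of the 78 mitochondrial ribosomal proteins and lowered it for 3 (edgeR quasi-likelihood test, adjusted p below 0.05 over all 12772 genes tested). Over all genes, 23.8% were called higher and 22.4% lower. The median log2 change of the members was 0.38, against 0.00 for all genes, and 62 of the 78 changes were positive. Both cytokine libraries lay above both untreated libraries for 46 members and below both for 10, with 36.8% of all genes in each of these classes. With the replicate as a block, which the pooling of islets before division allows, 49 members were higher and 8 lower. Leaving out 1 library gave 20 to 37 higher members (20 without replicate 2 of untreated, 22 without replicate 1 of cytokines) and 0 to 3 lower (0 without replicate 1 of cytokines, 1 without replicate 1 of untreated). Of 51 large-subunit genes 26 were higher and 3 lower, with a median of 0.43, and of 26 small-subunit genes 10 were higher and none lower, with a median of 0.33. Proteins named as bacterial counterparts (22 of 45 higher, 2 lower, median 0.39) and proteins named as mitochondrial (14 of 32 higher, 1 lower, median 0.39) had the same median. The second group includes Mrps18a and Mrps18b, which belong to a family with a bacterial member.

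**Figure D1:**
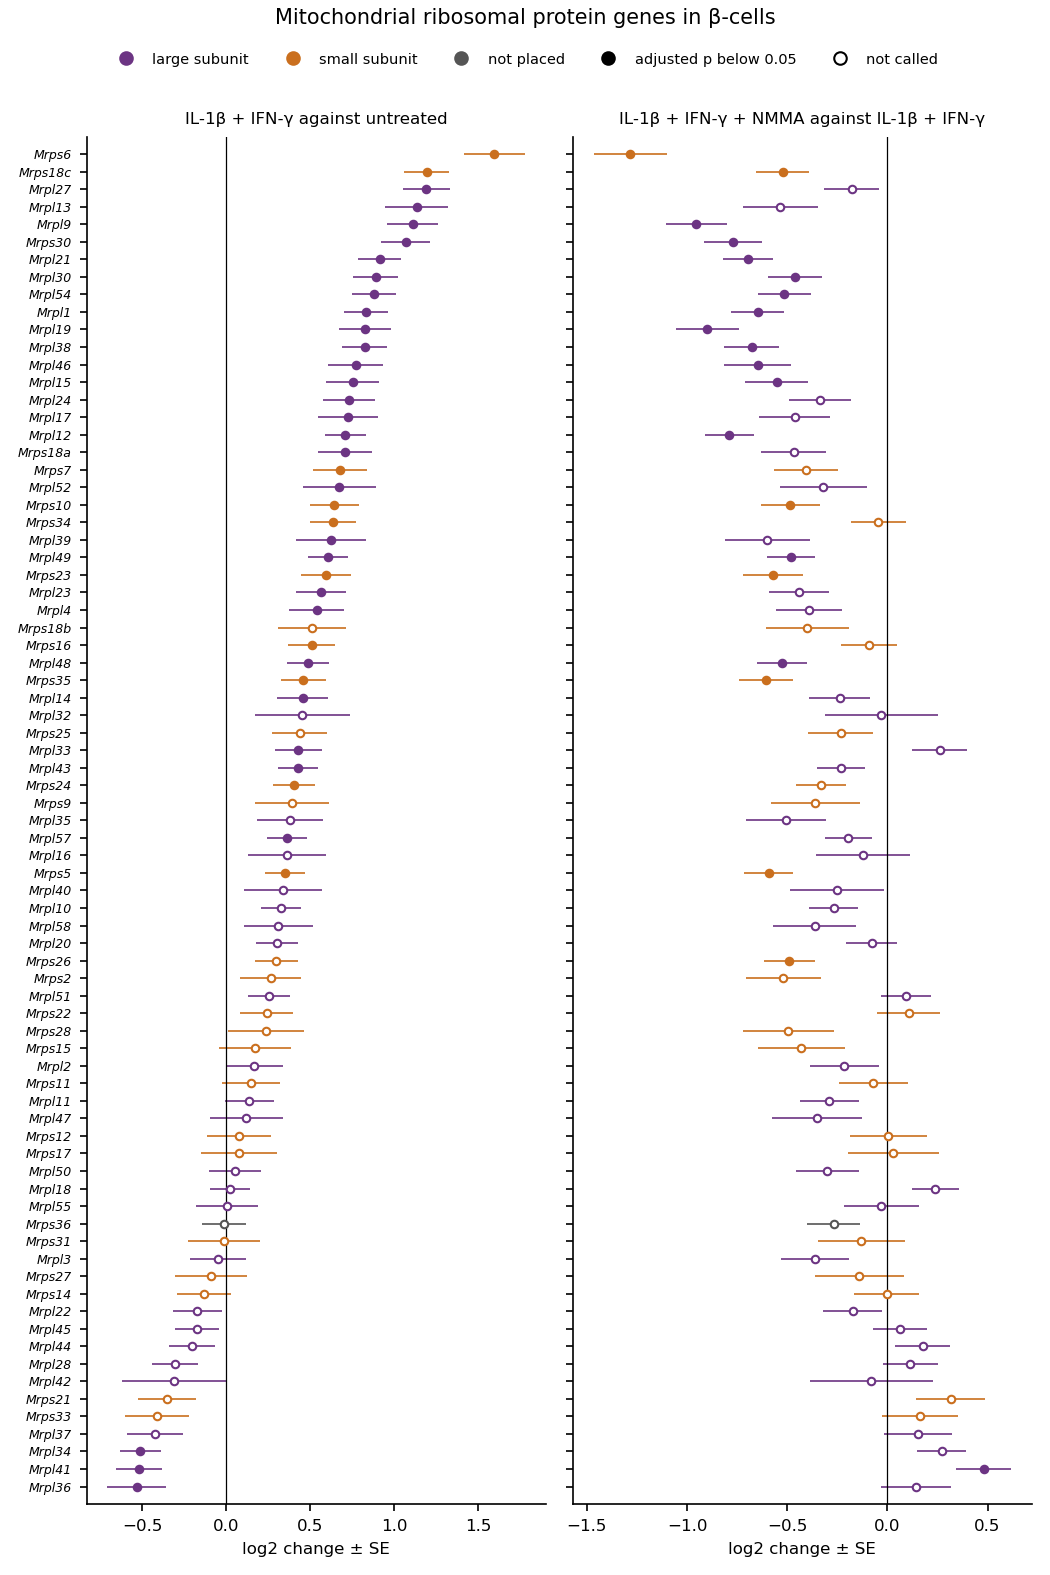
Change of each mitochondrial ribosomal protein gene in β-cells, as log2 ratio with its standard error from the edgeR fit. The left panel compares cytokines with untreated cells and the right panel cytokines plus NMMA with cytokines. Filled points passed an adjusted p of 0.05, colors give the subunit, and genes are in the order of the left panel. Mrpl53 (log2 change 0.57, SE 3.65, on the left) is not drawn because its 2 replicates cannot be compared. The changes on the left run from −0.53 for Mrpl36 to 1.60 for Mrps6, and on the right from −1.28 for Mrps6 to 0.48 for Mrpl41.

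The largest rise was that of Mrps6, which encodes bS6m of the small-subunit platform (chr16:92058270-92112227, plus strand, GRCm38). Mrps6 stood at 5.78 and 7.97 CPM in the untreated libraries, at 21.8 and 19.4 CPM with cytokines, at 8.74 and 8.16 CPM with cytokines plus NMMA, and at 7.02 and 6.32 CPM with NMMA alone. Only the cytokine libraries were high, and the log2 change over untreated cells was 1.60 (SE 0.18, adjusted p = 0.000189). Mrps6 overlaps Slc5a3, a gene for a myo-inositol transporter, on the same strand, and reads from the shared part cannot be assigned with certainty. Slc5a3 itself was at 2.94 and 5.80 CPM untreated and at 10.98 and 12.9 CPM with cytokines (log2 value 1.48, SE 0.34, adjusted p = 0.00834).

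Mrps18c encodes bS18m, which in bacteria pairs with the S6 protein on the platform (chr5:100798627-100804471, plus strand). Its level went from 38.1 and 42.7 CPM in untreated to 93.3 and 91.6 CPM in cytokine-treated β-cells, with 67.8 and 61.0 CPM when NMMA was present. The groups did not overlap, and the log2 change with cytokines was 1.19 (SE 0.13, adjusted p = 0.000171). Mitochondria have 3 proteins of the S18 family. Mrps18a, now placed in the large subunit as mL66, rose by a log2 value of 0.71 (SE 0.16, adjusted p = 0.0065). Mrps18b (mS40) had a log2 value of 0.51 (SE 0.21, adjusted p = 0.0683) that passed only with the replicate block (adjusted p = 0.000155).

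Other increases were seen in large-subunit genes. Mrpl27, whose bacterial homologue reaches the peptidyl transferase center, went from 32.4 and 36.2 CPM to 84.1 and 72.7 CPM (log2 change 1.19, SE 0.14, adjusted p = 0.000206). Mrpl9 went from 17.4 and 19.5 CPM to 43.1 and 36.6 CPM (log2 change 1.11, SE 0.15, adjusted p = 0.000467). For both genes the 2 cytokine libraries were well above the 2 untreated ones. Mrpl13 (1.14), Mrps30 (1.07), Mrpl21 (0.92) and Mrpl30 (0.89), all of the large subunit, made up the rest of the 8 largest log2 increases that agreed in direction between replicates. Mrpl12, the stalk protein that contacts translation factors, was at 38.0 and 36.7 CPM untreated and at 64.7 and 57.5 CPM with cytokines (log2 change 0.71, SE 0.12, adjusted p = 0.00161).

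The 3 genes that fell encode large-subunit proteins. Mrpl36 and Mrpl34 encode very small basic proteins with bacterial homologues, and Mrpl41 encodes a protein without one. Mrpl34 was at 43.4 and 43.7 CPM in untreated and at 29.3 and 31.9 CPM in cytokine-treated cells (log2 change −0.51, SE 0.12, adjusted p = 0.00813). Mrpl41 fell from 37.2 and 32.1 CPM to 24.1 and 24.3 CPM (log2 change −0.52, SE 0.14, adjusted p = 0.0129). Mrpl36 was at 56.4 and 45.8 CPM untreated and at 31.0 and 40.0 CPM with cytokines, with more spread between replicates (log2 change −0.53, SE 0.18, adjusted p = 0.0336). In all 3 cases no cytokine library reached the lowest untreated library.

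Proteins chosen for their known roles did not all change. Mrps34, a small-subunit protein linked to human mitochondrial disease, rose by a log2 value of 0.64 (SE 0.14, adjusted p = 0.00518), and Mrps5 by 0.35 (SE 0.12, adjusted p = 0.0369). Mrps12, which lines the decoding site, was at 109 and 95.7 CPM untreated and at 122 and 94.4 CPM with cytokines, so the groups overlapped (log2 value 0.08, adjusted p = 0.768). Mrpl11 of the factor-binding region (0.14), Mrps2 (0.26), Mrpl3 (−0.05) and Mrpl44, an RNase III-like protein (−0.20), did not pass the test. Mrpl53 could not be judged, because it was at 0.333 CPM in the untreated library of replicate 1 and at 70.8 CPM in that of replicate 2. The replicates were counted against different gene lists, of 31053 and 32285 genes, and the part of this in the gap was not tested. Reads may also be shared with pseudogene copies for Mrpl23 (1 copy), Mrpl48 (1 copy) and Mrps36 (3 copies), and with an overlapping gene for Mrps24 (Urgcp) and Mrps34 (Nme3).

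The size of the rise depended on the scaling. When the sums were divided by total UMIs alone, the median log2 change of all genes in β-cells became −0.22 and that of the members 0.17, with 21 members higher and 10 lower. Over all 12772 genes, 1985 were then higher and 3922 lower. Of the UMIs in β-cells, insulin mRNAs took 40.1% to 41.9% in the untreated and 34.3% to 37.3% in the cytokine libraries. As a share of all UMIs, the members summed to 32.2 and 32.5 per 10000 in untreated and to 37.6 and 35.2 per 10000 in cytokine-treated β-cells, a mean log2 ratio of 0.17 ± 0.07 (SD over 2 replicates). When hormone and mitochondrially encoded UMIs were left out of the total, the ratio was −0.01 ± 0.02. The summed level therefore gave no direction that held with both denominators.

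**Figure D2:**
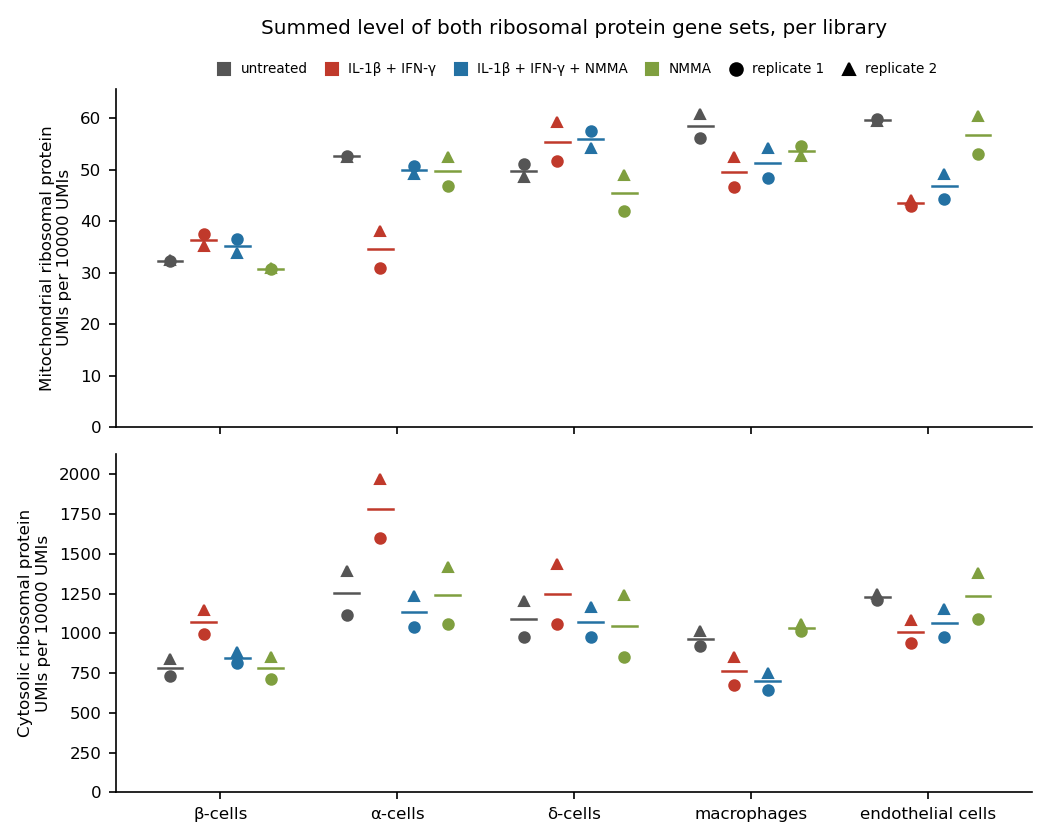
UMIs of mitochondrial ribosomal protein genes (upper panel) and of cytosolic ribosomal protein genes (lower panel) per 10000 UMIs of each cell class, in every library. Symbols give the replicate, colors the condition, and short lines the mean of 2 replicates. In α-cells the upper panel drops from 52.7 and 52.5 to 30.9 and 38.2 with cytokines while the lower panel climbs from 1115 and 1394 to 1598 and 1969.

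Inhibition of nitric oxide synthesis during cytokine exposure lowered 20 members in β-cells and raised 1, compared with cytokines alone. Over all genes, 9.04% were lower and 10.3% higher in this comparison. The median log2 change of the members was −0.33, against 0.01 for all genes. For 41 members both libraries with NMMA lay below both cytokine libraries and for 7 above, against 28.7% and 31.6% of all genes. With the replicate block, 41 members were lower and 4 higher, against 2608 and 2593 of the 12772 genes. Scaling by total UMIs moved the median of all genes to 0.22 and left 7 members lower and 3 higher, with a member median of −0.11. Over all genes it left 404 lower and 2346 higher. Leaving out 1 library gave 4 to 19 lower (4 without replicate 1 of cytokines, 8 and 5 without replicates 1 and 2 of cytokines plus NMMA). Both comparisons use the same cytokine libraries, so they are not independent of each other.

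Mrps6 fell by 1.28 on the log2 scale with NMMA (SE 0.18, adjusted p = 0.00364) and Mrpl9 by 0.95 (SE 0.15, adjusted p = 0.00532), to 21.8 and 19.4 CPM, near its untreated level. Mrpl19, at the interface of the subunits, was at 29.5 and 23.0 CPM with cytokines and at 14.0 and 14.3 CPM with cytokines plus NMMA (log2 change −0.90, SE 0.16, adjusted p = 0.00695). Mrpl12 was at 36.7 and 34.04 CPM when NMMA was present (log2 change −0.79, SE 0.12, adjusted p = 0.00499). These libraries were close to the untreated ones (38.0 and 36.7 CPM). Mrpl41 was the 1 member that rose, to 33.3 and 34.3 CPM (log2 change 0.48, SE 0.14, adjusted p = 0.0383).

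Compared with untreated cells, β-cells given cytokines plus NMMA had 6 members higher and none lower, with 12.9% and 9.78% of all genes called. The median log2 difference was 0.08, against 0.00 for all genes. With the replicate block 16 were higher and 5 lower, against 2822 and 2400 of the 12772 genes. The 6 genes were Mrpl27 (log2 difference 1.02, SE 0.14, adjusted p = 0.000862), Mrpl33 (0.69), Mrps18c (0.67), Mrpl13 (0.60), Mrps34 (0.59) and Mrpl30 (0.43). Mrpl27 stood at 74.2 and 64.5 CPM in these libraries, far above the 32.4 and 36.2 CPM of untreated cells. Mrpl33 stood at 104 and 110 CPM, above its level with cytokines alone (83.8 and 95.1 CPM). With NMMA alone no member was called in any of the 5 cell classes (edgeR), with 0.00% of all genes called in each. At an unadjusted p below 0.05 it gave 1 member in β-, 2 in α- and 2 in δ-cells, 3 in macrophages and 0 in endothelial cells, and DESeq2 called 0 in each class. The member medians were −0.06 in β-, −0.12 in α-, −0.14 in δ-cells and −0.12 in macrophages. Those of all genes were 0.00, 0.00, 0.02 and 0.01. Positive changes were seen in 16 of 78, 25 of 77, 22 of 77 and 28 of 69 members.

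Cytosolic ribosomal protein genes spanned a narrower range of changes in β-cells. Of this set, 68 of 83 tested were higher with cytokines and none lower, with a median log2 change of 0.69 and a range from 0.28 for Rpl41 to 0.98 for Rps20. The members spread over a wider range, from −0.53 to 1.60. NMMA with cytokines lowered 48 of the 83 cytosolic genes against cytokines alone (median −0.56) and raised none. With total UMI scaling 39 of the 83 were higher with cytokines (median 0.47) and 9 lower when NMMA was added (median −0.34), and none moved the other way. UMIs of mitochondrial ribosomal proteins made up 4.40% and 3.88% of those of cytosolic ribosomal proteins in untreated β-cells and 3.76% and 3.06% with cytokines. Both cytokine values lay below both untreated values, and with cytokines plus NMMA the share was 4.52% and 3.81%. With NMMA alone it was 4.32% and 3.62%, and the second of these lay below the cytokine value of replicate 1. Within each replicate the cytokine value was the lowest. These shares compare tags from the 3′ ends of mRNAs and are not levels per length.

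**Figure D3:**
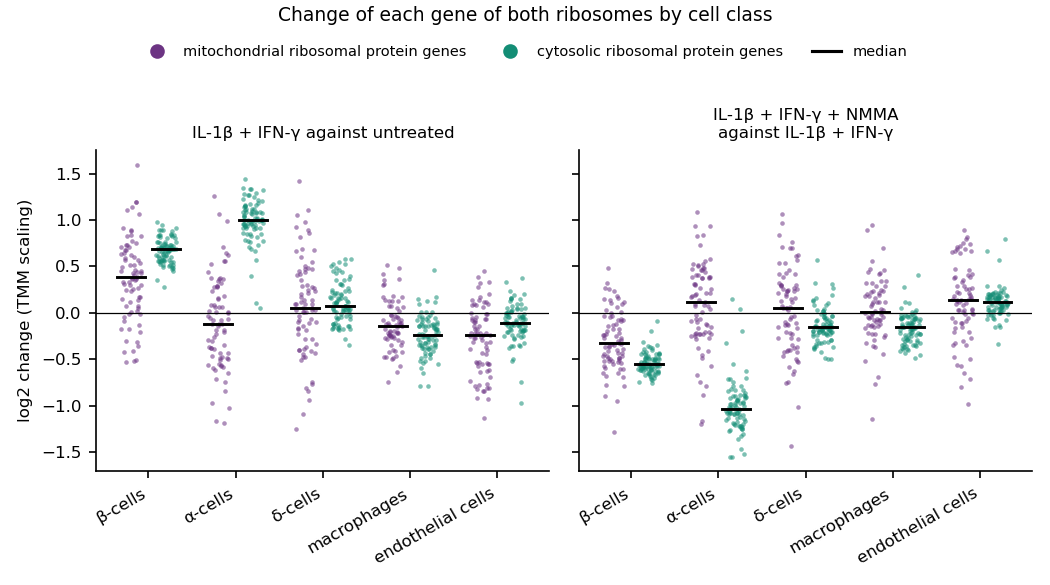
Log2 change of each mitochondrial (purple) and cytosolic (green) ribosomal protein gene in 5 cell classes, with the median as a black line. The left panel compares cytokines with untreated cells and the right panel cytokines plus NMMA with cytokines. Medians on the left are 0.38 and 0.69 in β-cells and −0.12 and 1.0 in α-cells, for the mitochondrial and the cytosolic set.

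In α-cells cytokines raised 68 of 83 cytosolic ribosomal protein genes by a median log2 value of 1.0 and lowered none. Among the 77 mitochondrial ribosomal protein genes tested (Mrps27 was too low), 5 were higher and 7 lower, with 14.2% and 8.53% of the 9594 tested genes called. The median log2 change of the members was −0.12, against 0.00 for all genes. In 16 members both cytokine libraries lay above the untreated ones and in 31 below, against 31.0% and 30.5% of all genes. The replicate block gave 7 higher and 9 lower, against 1745 and 1158 of the 9594 genes. Scaling by total UMIs moved the median of all genes to −0.51 and that of the members to −0.62, with 1 member higher and 31 lower, while 31 cytosolic genes were higher and none lower. Over all 9594 genes, 629 were then higher and 2657 lower.

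The members that rose in α-cells were Mrpl9, Mrps6, Mrpl30, Mrpl24 and Mrpl52. Mrpl9 went from 31.4 and 25.8 CPM untreated to 85.3 and 55.7 CPM with cytokines and was at 32.6 and 27.0 CPM with cytokines plus NMMA (log2 change with cytokines 1.26, SE 0.28, adjusted p = 0.00277). Mrps6 went from 21.9 and 31.8 CPM to 47.0 and 64.6 CPM (log2 change 1.07, SE 0.28, adjusted p = 0.00935). Its neighbor Slc5a3 rose by 3.0 (SE 0.40, adjusted p = 3.18e-05), from 9.50 and 3.23 CPM to 48.8 and 48.7 CPM, so the value of Mrps6 in α-cells may hold reads of Slc5a3. Mrpl30 went from 107 and 82.4 CPM to 186 and 187 CPM (log2 change 0.98, SE 0.21, adjusted p = 0.00212). Of these genes Mrpl9 alone was still called with total UMI scaling (log2 change 0.73, adjusted p = 0.0466).

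The members that fell in α-cells were Mrpl41, Mrpl44, Mrpl34, Mrpl28, Mrps36, Mrpl36 and Mrps33. Mrpl41 was at 87.7 and 85.6 CPM untreated, at 27.9 and 45.1 CPM with cytokines and at 79.7 and 81.4 CPM with cytokines plus NMMA (log2 change with cytokines −1.19, SE 0.26, adjusted p = 0.00277). Mrpl44 fell from 33.6 and 29.1 CPM to 19.2 and 10.6 CPM (log2 change −1.17, SE 0.37, adjusted p = 0.0276). Mrpl34 fell from 76.0 and 108 CPM to 34.8 and 53.1 CPM (log2 change −1.02, SE 0.25, adjusted p = 0.00636). Untreated and cytokine libraries did not overlap for any of the 7. Mrpl34, Mrpl36 and Mrpl41 were thus called lower in both α- and β-cells.

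**Figure D4:**
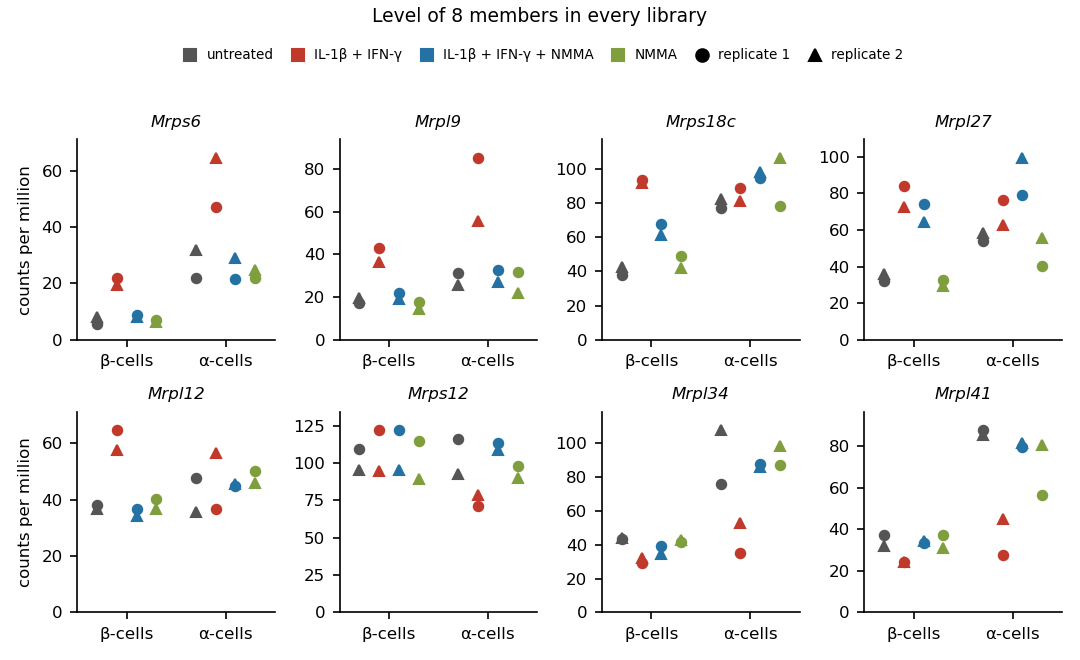
TMM-scaled CPM of 8 members in every β- and α-cell library. Colors give the condition and symbols the replicate. Mrps6 and Mrpl9 are high in the cytokine libraries of both classes, Mrps18c and Mrpl27 in those of β-cells (72.7 to 93.3 CPM, against 32.4 to 42.7 CPM untreated), and Mrpl34 and Mrpl41 are low in the cytokine libraries of both classes.

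As a share of all α-cell UMIs the members fell from 52.7 and 52.5 per 10000 in untreated cells to 30.9 and 38.2 per 10000 with cytokines, a mean log2 ratio of −0.61 ± 0.22 (SD, n = 2). The ratio was −0.55 ± 0.13 without hormone and mitochondrially encoded UMIs and −0.39 ± 0.12 when cytosolic ribosomal protein UMIs were left out too. With cytokines plus NMMA the share was 50.7 and 49.2 per 10000, and all 4 of these other libraries lay above both cytokine libraries. Relative to cytosolic ribosomal protein UMIs, the members made up 4.73% and 3.77% in untreated α-cells and 1.93% and 1.94% with cytokines. Insulin mRNAs took 0.79% and 0.66% of α-cell UMIs in the untreated, 4.50% and 4.18% in the cytokine and 1.56% and 5.03% in the cytokine plus NMMA libraries. The 9 β-cell markers together took 90.6 to 106.8 per 10000 in untreated and 490.5 to 517.9 per 10000 in cytokine-treated α-cells. Of these 9, 3 lay higher in both cytokine libraries than in both untreated ones and 4 lower, and none was at 0 in all libraries. Of the 6 α-cell markers, 5 lay lower in both cytokine libraries and 0 higher. Their sums overlapped, at 1752 to 1978 per 10000 in untreated and 1371 to 2176 in cytokine-treated α-cells. In the same order, δ-cell markers took 18.7 to 26.5 and 35.7 to 39.3 per 10000, and PP-cell markers 456 to 471 and 512 to 529. The insulin-led cells left out of the α- and δ-cell classes came from libraries without cytokines but for 2. The part of RNA of β-cells and other endocrine cells in the α-cell values was not tested.

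With NMMA added to cytokines, 4 members were lower and 2 higher in α-cells, compared with cytokines alone, and 6.31% and 4.66% of all genes were called. The 4 were Mrpl9 (log2 change −1.20, SE 0.27, adjusted p = 0.00814), Mrps6 (−1.17), Mrpl30 (−0.89) and Mrpl13 (−0.79). The other 2 were Mrpl41 (log2 change 1.08, SE 0.26, adjusted p = 0.0112) and Mrpl34 (0.93). The replicate block gave 9 higher and 4 lower, against 802 and 1018 of the 9594 genes. Total UMI scaling, which moved the median of all genes to 0.41, gave 23 members higher and none lower. Over all genes it gave 1560 higher and 231 lower. In the same comparison 64 of 83 cytosolic ribosomal protein genes were lower and none higher (median log2 change −1.04). Against untreated α-cells, Mrps34 alone was higher with cytokines plus NMMA (log2 difference 0.68, SE 0.20, adjusted p = 0.0403), with 6.04% of all genes higher, and no member was lower, with 2.33% of all genes lower. The replicate block gave 2 higher members in that comparison, against 889 of the 9594 genes.

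The response of 7 members was smaller in α- than in β-cells by the interaction of class and condition, and that of no member was larger. Smaller and larger refer here and below to the signed log2 response, so a fall in the other class also counts as smaller. Among all 12787 genes tested, 1.93% had a smaller and 2.82% a larger response in α-cells. The median difference in log2 response was −0.41 for the members, 0.42 for the cytosolic ribosomal protein genes (6 larger, 1 smaller) and 0.00 for all genes. Scaling by total UMIs, which put all genes at −0.35 and the members at −0.76, gave 35 members with a smaller response. The smallest adjusted p was that of Mrps18c (−1.05, SE 0.22, adjusted p = 0.000891), whose α-cell level was 76.8 and 82.4 CPM untreated and 88.8 and 81.4 CPM with cytokines. Mrps10, a small-subunit protein of the head, differed by −1.18 (SE 0.31, adjusted p = 0.0122), Mrpl17 by −0.88, Mrpl27 by −0.83 and Mrps16 by −0.81. Leaving out 1 library gave 2 to 14 such genes: 2 without replicate 1 of cytokines or replicate 2 of untreated, 3 without replicate 1 of untreated, 14 without replicate 1 and 11 without replicate 2 of NMMA.

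In δ-cells 2 members rose with cytokines and none fell, with 4.65% and 1.93% of 8647 genes called. Mrps6 went from 40.0 and 33.6 CPM to 120 and 83.9 CPM (log2 change 1.42, SE 0.33, adjusted p = 0.0141), and Mrpl27 from 59.6 and 68.9 CPM to 127 and 148 CPM (log2 change 1.11, SE 0.30, adjusted p = 0.0345). Both pairs of libraries were apart, but without either untreated library neither gene was called, and DESeq2 called neither. The replicate block gave 3 higher members, against 589 of the 8647 genes. With cytokines plus NMMA, 3 members were higher than in untreated δ-cells and none lower, with 5.46% and 1.91% of genes called. Mrpl27 was at 156 and 149 CPM (log2 difference 1.26, SE 0.26, adjusted p = 0.00421), Mrps34 at 187 and 190 CPM against 94.5 and 84.1 CPM untreated (1.07, SE 0.24, adjusted p = 0.00864), and Mrpl38 at 113 and 95.9 CPM (0.89, SE 0.26, adjusted p = 0.0459). Between cytokines plus NMMA and cytokines no member was called by edgeR or DESeq2, 6 had an unadjusted p below 0.05, and 0.486% of genes were higher and 0.173% lower. The replicate block gave 1 higher and 1 lower there, against 164 and 116 of the 8647 genes. The 9 β-cell markers took 322.8 to 379.6 per 10000 UMIs in untreated and 544.8 to 578.3 per 10000 in cytokine-treated δ-cells, where 1 of them lay higher in both cytokine libraries and 4 lower. Other endocrine markers were lower in the same sums, without overlap: PP-cell markers took 855 to 1277 per 10000 in untreated and 263 to 493 in cytokine-treated cells, α-cell markers 101 to 349 and 16.5 to 80.2, and the δ-cell markers themselves 610 to 802 and 280 to 398. The part of these markers in the values of the members was not tested. The response of Mrpl21 (−1.24, SE 0.34, adjusted p = 0.0165) and Mrpl54 (−1.08, SE 0.30, adjusted p = 0.0174) was smaller in δ- than in β-cells, with 2.30% of 12976 genes called smaller and 1.23% larger. With total UMI scaling, which moved the median difference of all genes from −0.21 to 0.16, no member was called. None of the 83 cytosolic ribosomal protein genes was called with cytokines in δ-cells (median log2 change 0.08, 3 with an unadjusted p below 0.05, 0 by DESeq2). With the replicate block 5 of them were higher and 0 lower.

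In macrophages no member passed the test in any comparison. With cytokines 69 members were tested, 3.82% of 5156 genes were called higher and 0.795% lower, and the median log2 change of the members was −0.14, against −0.01 for all genes. An unadjusted p below 0.05 was reached by 2 members, and DESeq2 called 0. Cytokines plus NMMA gave 5 members with an unadjusted p below 0.05 against cytokines (0.116% of genes called higher, 0.00% lower) and 4 against untreated macrophages (5.16% and 1.30%), and DESeq2 again called 0. With the replicate block 3 members were lower in the last comparison, against 208 of the 5156 genes. The 9 members too low to test were Mrpl37, Mrpl38, Mrpl44, Mrpl47, Mrps2, Mrps6, Mrps27, Mrps31 and Mrps35. As a share of UMIs, the members were at 56.2 and 60.9 per 10000 untreated and at 46.7 and 52.6 per 10000 with cytokines (mean log2 ratio −0.24 ± 0.04, SD, n = 2). The 9 β-cell markers took 185.4 to 435.6 per 10000 UMIs in untreated and 22.8 to 67.5 per 10000 in cytokine-treated macrophages. All 9 lay lower in both cytokine libraries, and none was at 0 in all libraries. Their part in the share was not tested. Cytosolic ribosomal protein genes showed no called change with cytokines in macrophages (median −0.24, 10 of 83 with an unadjusted p below 0.05, 0 by DESeq2). The replicate block gave 3 of them lower. Against untreated macrophages, cytokines plus NMMA gave 5 of 83 cytosolic genes lower and 0 higher (median −0.40). In that comparison the replicate block gave 26 lower, total UMI scaling 11, and DESeq2 called 2. Only Mrpl13 responded differently in macrophages and β-cells, by −1.34 (SE 0.40, adjusted p = 0.0242), with 3.06% of 12806 genes called smaller and 1.33% larger, and 0 to 6 members were called when 1 library was left out.

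In endothelial cells 1 of 75 members fell with cytokines and none rose, with 1.75% and 4.58% of 7505 genes called. It was Mrpl34, at 110 and 117 CPM untreated, 39.7 and 60.2 CPM with cytokines, and 87.0 and 79.3 CPM with cytokines plus NMMA (log2 change with cytokines −1.13, SE 0.31, adjusted p = 0.0382). The call held when either cytokine plus NMMA library was left out and was lost without any 1 of the other 6 libraries (adjusted p up to 0.247), and DESeq2 did not make it (adjusted p = 0.288). The median log2 change of the members was −0.24 against −0.02 for all genes, and 17 of 75 changes were positive. In 33 members both cytokine libraries lay below both untreated ones and in 5 above, against 24.4% and 22.4% of all genes. With the replicate block 2 members were lower. Cytokines plus NMMA gave no called member by edgeR or DESeq2, with 4 at an unadjusted p below 0.05 against cytokines (0.00% of genes called) and 3 against untreated cells (5.02% of genes higher, 1.61% lower). As a share of UMIs the members fell from 60.0 and 59.6 to 43.0 and 44.0 per 10000 (mean log2 ratio −0.46 ± 0.03), with 44.3 and 49.3 per 10000 when NMMA was present. The 9 β-cell markers took 47.7 to 48.7 per 10000 UMIs in untreated and 22.7 to 23.5 per 10000 in cytokine-treated endothelial cells, with 6 of them lower in both cytokine libraries. The 8 endothelial markers took 100.9 to 120.1 and 58.1 to 89.7 per 10000 in the same order, with 4 lower in both cytokine libraries and 0 higher. Macrophage markers took 0.0728 to 0.140 per 10000 untreated and 0.158 to 14.4 with cytokines plus NMMA. The part of these markers in the share was not tested. Scaling by total UMIs moved the median of all endothelial genes to −0.22 and that of the members to −0.43. The response of 7 members was smaller in endothelial than in β-cells and of none larger (3.68% and 2.63% of 13263 genes), led by Mrps6 (−1.96, SE 0.38, adjusted p = 2.6e-05). Mrps6 was at 104 and 80.2 CPM in untreated and at 39.7 and 80.3 CPM in cytokine-treated endothelial cells, with Slc5a3 at 34.7 and 29.5 CPM and 9.92 and 17.2 CPM. The other 6 were Mrpl17 (−1.48), Mrpl13 (−1.29), Mrpl23 (−1.22), Mrpl30 (−1.17), Mrpl15 (−1.11) and Mrpl27 (−1.09). A smaller response could be a fall: Mrpl17 was at 114 and 94.3 CPM in untreated and at 54.6 and 54.5 CPM in cytokine-treated endothelial cells. Mrpl15 was at 104 and 91.5 CPM and at 69.5 and 65.9 CPM. Neither was called within endothelial cells.

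Levels also differed between untreated classes. Compared with β-cells and with TMM scaling, 16 members were higher and 4 lower in α-cells (13.0% and 17.6% of all genes), 3 higher and 3 lower in δ-cells (9.49% and 11.8%), 28 higher and 3 lower in macrophages (19.1% and 28.3%), and 8 higher and 16 lower in endothelial cells (22.2% and 32.6%). Mrps6 was higher than in β-cells in all 4 of these classes, by log2 values of 1.48 in α- (SE 0.23, adjusted p = 8.2e-08), 1.74 in δ- (SE 0.28, adjusted p = 1.87e-08), 1.12 in macrophages (SE 0.42, adjusted p = 0.0199) and 2.70 in endothelial cells (SE 0.25, adjusted p = 1.61e-25). In macrophages Mrps6 was too low to test within the class. The overlapping Slc5a3 was at 2.94 and 5.80 CPM in untreated β-, 9.50 and 3.23 in α-, 14.4 and 5.04 in δ- and 34.7 and 29.5 in endothelial cells. The part of Slc5a3 reads in the Mrps6 differences was not tested. Mrpl18, which binds 5S rRNA in bacteria, was higher in macrophages by 1.83 (SE 0.23, adjusted p = 1.88e-14) and in endothelial cells by 1.06 (SE 0.20). Mrps12 was lower in α-cells (−0.46), macrophages (−1.33) and endothelial cells (−1.25), although in α-cells its sign turned with total UMI scaling (0.11). The balance of the whole set depended on the scaling. By total UMIs, 56 members were higher in α-, 45 in δ-, 47 in macrophages and 63 in endothelial cells, and 0, 0, 2 and 0 lower, with medians of all genes at 0.53, 0.61, 0.09 and 0.73.

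Promoters were read to see what the members share in sequence. RefSeq gives a start site on GRCm38.p6 for 69 of the 78 genes. Windows from 250 bases before to 50 bases after the start were searched on both strands for 3 short motifs of factors that act on nuclear genes for mitochondrial proteins. The NRF1 letters GCGCATGCG stood in the windows of 7 members (10.1%), against 1.95% of all 27025 genes with a window and 4.18% of the genes tested in β-cells. The ETS letters CCGGAAG, read by GABP, stood in 26 members (37.7%), against 9.93% of all genes, 20.2% of tested genes and 40.0% of cytosolic ribosomal protein genes. The YY1 letters AAGATGGC stood in 12 members (17.4%), against 3.19% of all genes and 5.38% of tested genes.

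Among members with a window, the ETS letters stood in 12 of 28 that rose in β-cells with cytokines, 1 of 3 that fell and 13 of 38 that were not called. The NRF1 letters stood in 3 of 28, 0 of 3 and 4 of 38, and the YY1 letters in 4 of 28, 1 of 3 and 7 of 38. The stretches below, cut to bases outside annotated exons, show the NRF1 letters in a gene that rose (Mrpl9), NRF1 and ETS letters together in a gene that was not called (Mrpl22), and the ETS letters in a gene that rose (Mrps18c, opposite strand) and in one that fell (Mrpl34). They are written 5′ to 3′ on the strand of the gene with the motif letters in capitals. In Mrpl9 the NRF1 letters occur on both strands and overlap. The stretches lie at chr3:94443086-94443317, chr11:58171414-58171660, chr5:100798599-100798626 and chr8:71464676-71464925, all on the plus strand of GRCm38.p6.
Mrpl9: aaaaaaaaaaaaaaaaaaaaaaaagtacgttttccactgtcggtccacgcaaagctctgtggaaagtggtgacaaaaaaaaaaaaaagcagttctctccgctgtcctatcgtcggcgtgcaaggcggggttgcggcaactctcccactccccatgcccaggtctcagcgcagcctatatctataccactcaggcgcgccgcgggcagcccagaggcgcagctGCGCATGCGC
Mrpl22: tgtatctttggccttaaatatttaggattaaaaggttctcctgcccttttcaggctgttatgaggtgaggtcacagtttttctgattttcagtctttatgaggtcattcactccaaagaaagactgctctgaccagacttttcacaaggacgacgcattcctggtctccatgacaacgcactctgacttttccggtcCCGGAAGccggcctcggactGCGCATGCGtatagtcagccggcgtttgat
Mrps18c: gtgaCTTCCGGcccgggaagcgcgggaa
Mrpl34: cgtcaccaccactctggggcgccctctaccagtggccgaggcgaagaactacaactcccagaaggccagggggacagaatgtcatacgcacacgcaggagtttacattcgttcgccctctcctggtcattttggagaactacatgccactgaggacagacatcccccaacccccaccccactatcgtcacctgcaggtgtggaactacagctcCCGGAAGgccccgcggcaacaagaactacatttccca

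Genes around the mitochondrial ribosome were counted in the same β-cell fit, where 23.8% of all genes were higher and 22.4% lower with cytokines. Of 5 ribosomal proteins with symbols of other kinds, 3 rose with cytokines (Ptcd3, log2 change 0.74, Aurkaip1, 0.66, and Chchd1, 0.61) and none fell. Of 28 assembly factors, 6 rose and 5 fell (median −0.14). Malsu1, which binds the large subunit and keeps it from joining the small one too early, rose from 22.3 and 23.6 CPM to 49.4 and 45.4 CPM (log2 change 1.05, SE 0.12, adjusted p = 0.000183). Of 14 translation factors, Mrrf, which recycles ribosomes, and Mtif3 rose (1.05 and 0.57) and Lrpprc, which stabilizes mitochondrial mRNAs, and Mtif2 fell (−1.31 and −0.48).

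None of the 20 mitochondrial aminoacyl-tRNA synthetases and related factors rose with cytokines, and 6 fell, among them Rars2 (log2 change −1.34, SE 0.25, adjusted p = 0.0022), Iars2 (−1.29), Vars2 (−1.23), Nars2 (−0.62) and Gatc (−0.45). Rars2, which charges the arginine tRNA, was at 15.9 and 9.84 CPM untreated, 5.09 and 5.11 CPM with cytokines and 10.8 and 8.57 CPM with cytokines plus NMMA. Both cytokine libraries were the lowest of these. The replicate block gave 4 higher and 9 lower in this list. With NMMA added to cytokines, Rars2 (log2 change 0.93, SE 0.25, adjusted p = 0.0312) and Iars2 (0.66) were among the genes that rose, and Ears2 (−0.97) and Wars2 (−0.78) fell. Of 11 transcription genes and 4 genes for membrane insertion, edgeR without the block called 0 with cytokines, 1 of each list had an unadjusted p below 0.05, and DESeq2 called 0. With the replicate block 1 transcription gene was higher and 2 lower, and 2 insertion genes were higher and 1 lower. Total UMI scaling gave 2 lower transcription genes.

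Of 13 mRNAs encoded in mitochondrial DNA, 7 fell and 1 rose (median −0.84). The 7 were mt-Nd1, mt-Nd2, mt-Nd3, mt-Nd4, mt-Nd4l and mt-Nd6 of complex I and mt-Cytb, and the 1 that rose was mt-Co1. mt-Nd1 was at 2074 and 1734 CPM untreated, at 631 and 766 CPM with cytokines and at 1602 and 1297 CPM with cytokines plus NMMA (log2 change with cytokines −1.45, SE 0.17, adjusted p = 0.000232). mt-Co1 was at 7970 and 7483 CPM untreated and at 10897 and 9294 CPM with cytokines (log2 change 0.39, SE 0.14, adjusted p = 0.043). Cells with over 10% mitochondrial UMIs had been removed, which bounds these levels from above.

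Of 13 quality control genes, 8 rose and none fell (median 0.63). Hspe1, the co-chaperonin of the matrix, rose from 188 and 240 CPM to 553 and 585 CPM (log2 change 1.41, SE 0.16, adjusted p = 0.000157) and was at 274 and 264 CPM with NMMA present. Lonp1, a matrix protease, rose by 1.23 (SE 0.18, adjusted p = 0.000734), and Hspa9, the matrix Hsp70, by 1.20. Of 9 biogenesis regulators, 6 rose and none fell (median 0.72): Myc (1.95, SE 0.20, adjusted p = 0.000102), Esrra (0.96), Pprc1 (0.88), Gabpb1 (0.78), Nrf1 (0.72) and Yy1 (0.50). With NMMA added to cytokines, Myc fell by 1.03 on the log2 scale (SE 0.19, adjusted p = 0.0093) and Pprc1 by 0.67. With total UMI scaling 4 regulators were higher and none lower, 6 quality control genes were higher and 2 lower, and 8 mitochondrially encoded mRNAs were lower and none higher. That scaling gave 3 assembly factors higher and 6 lower, 1 translation factor higher and 5 lower, and no synthetase higher and 9 lower.

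**Figure D5:**
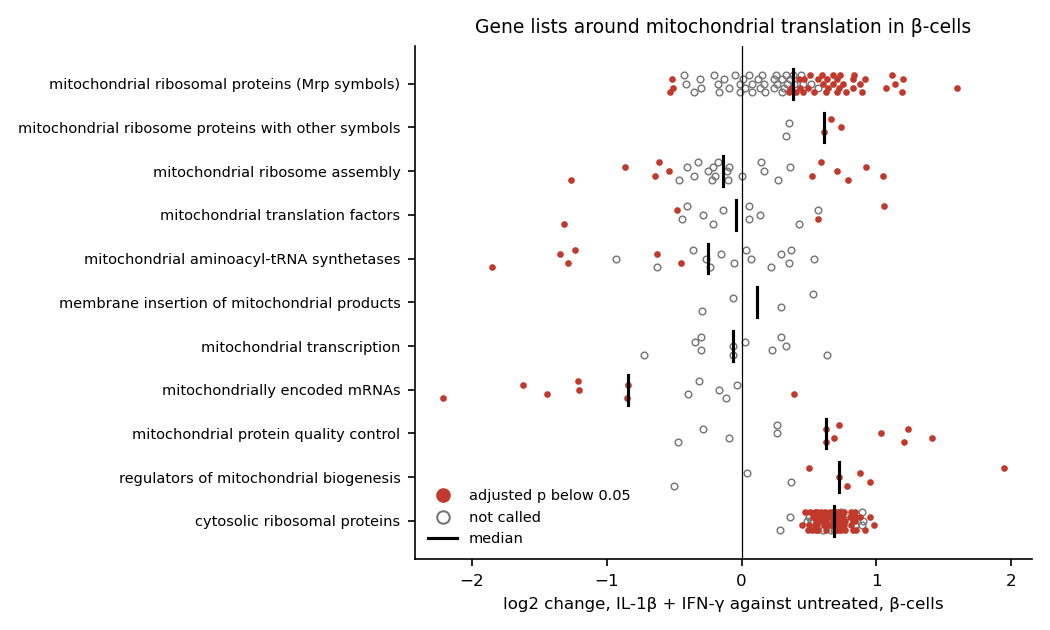
Log2 change with cytokines against untreated in β-cells for the members and 10 lists of genes around mitochondrial translation. Each point is a gene, filled where the adjusted p was below 0.05, and black lines give list medians. Medians run from −0.84 for mitochondrially encoded mRNAs to 0.72 for biogenesis regulators, with 0.38 for the members and 0.69 for cytosolic ribosomal proteins.

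In α-cells, where 14.2% of all genes were higher and 8.53% lower, 3 of 8 biogenesis regulators and 4 of 13 quality control genes rose with cytokines, and 1 quality control gene fell. Myc went from 1.46 and 2.15 CPM to 45.3 and 12.4 CPM (log2 change 3.76, SE 0.72, adjusted p = 0.000991), with a wide gap between the cytokine libraries. Hspe1 rose from 257 and 251 CPM to 843 and 731 CPM (log2 change 1.63, SE 0.21, adjusted p = 2.4e-05). Malsu1 (log2 value −0.03) and Mrrf (0.14), which rose in β-cells, did not pass the test in α-cells. Of 13 mitochondrially encoded mRNAs, mt-Nd1 (log2 change −0.71, SE 0.19, adjusted p = 0.011) and mt-Nd2 (−0.67) fell and mt-Co1 (0.61) rose. Lrpprc (−1.40) and Mtif2 (−1.14) fell among 13 translation factors, and Rars2 (−1.43) and Iars2 (−1.17) among 14 synthetases and related factors. With total UMI scaling 2 regulators were higher and none lower in α-cells, 1 quality control gene was higher and 2 lower, 4 mitochondrially encoded mRNAs were lower and none higher, and 6 translation factors and 4 synthetases and related factors were lower and none higher.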

How the data were processed

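Single-cell 3′ RNA-seq was read from 8 libraries of dispersed mouse islets. The deposited matrices hold UMI counts per gene and barcode, which the authors made with Cell Ranger on mm10 (submitters' processing notes), and were not normalized. Per the file headers, the matrix format was that of Cell Ranger 3.0.0 for replicate 1 and 6.0.0 for replicate 2, with 31053 and 32285 genes, of which the 30406 shared genes were kept. The study's limits were used (200 to 5500 genes in replicate 1, 200 to 6500 in replicate 2, mitochondrial share up to 10%) and left 10876 of 17426 (62.4%). Pairs of libraries shared 0 to 5 barcodes. Doublet calling marked 323 cells (2.97%), which were kept and removed only in an alternative. Cells were clustered with scanpy 1.11.5 and leidenalg 0.10.2 (2000 variable genes, 30 principal components, 20 neighbors, resolution 1), and clusters were named by marker genes. The α-, δ- and PP-cell clusters were clustered again in the same way.

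UMI counts were summed per library and class where a library held at least 10 cells. Genes were filtered, scaled by TMM and tested with edgeR 4.0.16 (quasi-likelihood, Benjamini-Hochberg adjustment over all genes tested) in R 4.3.3, with all 4 conditions in the fit. Differences between classes came from a fit over both classes with the library as a block. DESeq2 1.42.0, total UMI scaling, no filter on low counts, a limit of 5% mitochondrial UMIs, removal of doublets, a replicate block and leaving out each library were the alternatives. The scripts were tested on simulated data. Of genes changed 2-fold there, 33.2% were recovered in β-, 15.4% in α- and 1.06% in δ-cells, 8.33% in macrophages and 6.19% in endothelial cells. For a 2-fold difference in response between α- and β-cells it was 4%. A gene that was not called may therefore still have changed. The replicate numbers pair the samples, because islets of each replicate were pooled before division. Deviations from the group means correlated between same-numbered libraries in all 6 pairs of conditions of every class (r from 0.193 in δ-cells to 0.697 in β-cells). Any gap between replicates that all conditions share, such as the gene lists, also gives such a correlation. It therefore cannot show pairing by islets.

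Named genes were the called members with the largest changes in the same direction in both replicates, plus members with known roles. The members and lists were chosen with earlier results of these data known. Promoters came from RefSeq (GRCm38.p6) and gene positions from GENCODE M21 (GRCm38). One result is not reported here.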

Additional observations from a re-analysis of the deposited data

Results flagged for a closer look

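The cytokine response of 17 member and class combinations differed from that in β-cells by the interaction term of the edgeR fit, each value being the log2 response in the other class minus that in β-cells. In α-cells these were Mrps10 (−1.18), Mrps18c (−1.05), Mrpl17 (−0.88), Mrpl27 (−0.83), Mrps16 (−0.81), Mrpl14 (−0.72) and Mrpl21 (−0.69). In δ-cells they were Mrpl21 (−1.24) and Mrpl54 (−1.08), and in macrophages Mrpl13 (−1.34). In endothelial cells they were Mrps6 (−1.96), Mrpl17 (−1.48), Mrpl13 (−1.29), Mrpl23 (−1.22), Mrpl30 (−1.17), Mrpl15 (−1.11) and Mrpl27 (−1.09). All 17 differences were negative, and the members that differed in more than one class were Mrpl13, Mrpl17, Mrpl21 and Mrpl27. Of all genes, 1.93% had a smaller and 2.82% a larger response in α-cells, and 2.30% and 1.23% in δ-cells. In macrophages 3.06% and 1.33% were called, and in endothelial cells 3.68% and 2.63%. The member calls in δ-cells and macrophages were thus near or below the share of all genes. The comparisons share the β-cell sums and are not independent of each other.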

How the results depend on the processing

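Counts of members called are given as higher and lower, with the count of the report in brackets. With total UMI scaling, cytokines gave 21 and 10 in β-cells (36 and 3), 1 and 31 in α-cells (5 and 7) and 2 lower in endothelial cells (1). Cytokines plus NMMA against cytokines gave 3 and 7 in β-cells (1 and 20) and 23 and 0 in α-cells (2 and 4), and against untreated 0 higher in α-cells (1) and 1 lower in macrophages (0). The response relative to β-cells was smaller for 35 members in α-cells (7), 0 in δ-cells (2), 2 in macrophages (1) and 11 in endothelial cells (7). Untreated levels relative to β-cells gave 56 and 0 in α-cells (16 and 4), 45 and 0 in δ-cells (3 and 3), 47 higher in macrophages (28) and 63 and 0 in endothelial cells (8 and 16), and Mrps14 in δ-cells turned from −0.56 to 0.088. Over all genes, total UMI scaling gave 1985 and 3922 with cytokines in β-cells (3040 and 2866) and 629 and 2657 in α-cells (1364 and 818). The shift of the median of all genes between scalings enters all of these.

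With the replicate block, 8 members were lower with cytokines in β-cells (3). Cytokines plus NMMA against cytokines gave 4 and 41 in β-cells (1 and 20), 9 higher in α-cells (2) and 1 and 1 in δ-cells (0 and 0), and against untreated 16 and 5 in β-cells (6 and 0), 2 higher in α-cells (1) and 3 lower in macrophages (0). Endothelial cells gave 2 lower with cytokines (1). The block moved no other member count by more than 1.5 times. Over all genes, it gave 4120 and 3925 with cytokines in β-cells (3040 and 2866). For cytokines plus NMMA against cytokines in β-cells it gave 2593 and 2608 (1318 and 1154).

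DESeq2 called 2 and 3 with cytokines in α-cells (5 and 7), 0 higher in δ-cells (2) and 0 lower in endothelial cells (1). For cytokines plus NMMA against cytokines it called 0 higher in β-cells (1) and 1 and 2 in α-cells (2 and 4), and against untreated 0 higher in α-cells (1) and 1 in δ-cells (3). With at most 5% mitochondrial UMIs, 4 were lower with cytokines in α-cells (7) and 0 higher in δ-cells (2), and cytokines plus NMMA against untreated gave 1 lower in β-cells (0) and 0 higher in α-cells (1); that limit left 7 δ-cell libraries. Without the filter on low counts, cytokines plus NMMA gave 5 higher against cytokines (2) and 2 against untreated (1) in α-cells and 1 and 1 against cytokines in δ-cells (0 and 0), and 4 responses were smaller in macrophages (1). Without doublets the count was 0 higher for cytokines plus NMMA against cytokines in β-cells (1) and 2 smaller responses in macrophages (1). The cause of these moves was not tested. The smallest sum held 11 cells, so a minimum of 5 cells could not give other sums than 10.

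Log2 ratios of the summed share also moved. Without hormone and mitochondrially encoded UMIs they were −0.0141 in β- (0.168) and −0.0608 in δ-cells (0.152) with cytokines, and for cytokines plus NMMA against cytokines −0.0789 in β-cells (−0.0486) and 0.0366 in macrophages (0.048). Leaving out cytosolic ribosomal protein UMIs too, a choice made after seeing the data, gave 0.0444 in β-, −0.39 in α- (−0.61), −0.0649 in δ-cells, −0.31 in macrophages (−0.24) and −0.51 in endothelial cells (−0.46), and for cytokines plus NMMA against cytokines −0.16 in β-cells, 0.27 in α-cells (0.54) and 0.025 in macrophages. With each cell given equal weight the cytokine ratio was −0.30 in macrophages and −0.41 in endothelial cells, and the ratio of cytokines plus NMMA to cytokines −0.0843 in β-cells and 0.0282 in macrophages. That last ratio was 0.0503 with at most 5% mitochondrial UMIs and 0.0585 without doublets.

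Leaving out 1 library assumes that the lone library of its group varies like the others. With cytokines it gave 20 to 37 higher and 0 to 3 lower in β-cells (20 without replicate 2 of untreated, 22 and 0 without replicate 1 of cytokines, 1 lower without replicate 1 of untreated), 2 to 5 and 2 to 7 in α-cells (2 and 3 without replicate 1 and 2 and 2 without replicate 2 of untreated, 3 and 4 without replicate 1 of cytokines), 0 to 2 higher in δ-cells (0 without either untreated library, 1 without each library given cytokines) and 0 to 1 lower in endothelial cells. Cytokines plus NMMA against cytokines gave 0 to 1 and 4 to 19 in β-cells (4 without replicate 1 of cytokines, 8 and 5 without replicates 1 and 2 of cytokines plus NMMA), 0 to 4 and 1 to 4 in α-cells (0 and 4 higher without replicates 1 and 2 of cytokines) and 0 to 1 higher in δ-cells. Against untreated they gave 2 to 6 higher in β-cells (2 without replicate 1 of cytokines plus NMMA or of untreated, 3 without replicate 2 of untreated), 0 to 2 in α- (2 without either cytokine library, 0 without each of the other 6) and 0 to 3 in δ-cells (0 without replicate 1 of untreated). Smaller responses than in β-cells were 2 to 14 in α-cells, 0 to 3 in δ-cells (0 without either untreated library), 0 to 6 in macrophages (0 without replicate 1 of cytokines or replicate 2 of untreated, 3 without replicate 1 of untreated, 6 without replicate 2 of cytokines, replicate 1 of NMMA or either library of cytokines plus NMMA) and 3 to 8 in endothelial cells (3 without replicate 1 of cytokines or of untreated, 4 without replicate 2 of untreated). Untreated differences from β-cells were 5 to 18 and 0 to 4 in α-cells, 2 to 3 and 0 to 8 in δ-cells, 13 to 35 and 2 to 3 in macrophages, and 4 to 8 and 7 to 19 in endothelial cells, with the fewest higher, and outside macrophages the fewest lower, without one of the untreated libraries. All other counts stayed at 0 when 1 library was left out.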
